A study of Homo sapiens with 6 samples.

Results

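The transcripts that mark germinal centre B cells without being their master regulators were followed in SC1, a line of human B-cell lymphoma, with bulk RNA sequencing. The 10 genes were chosen by symbol, and all 10 stood among the 15802 genes of the deposited table. Cells received bryostatin at 1 nM (libraries bryostatin 1 to 3) or DMSO (libraries DMSO 1 to 3), with 3 libraries in each group. Bryostatin is a macrocyclic natural product that binds protein kinase C at the site for diacylglycerol, and DMSO is its solvent. How long the cells were treated is not stated in the labels. Nothing in the labels shows whether replicates were grown apart, and each p-value therefore reflects the variation among 6 libraries of 1 line, some of which may be technical.

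Germinal centres are the sites in lymphoid follicles where B cells divide, mutate their antibody genes and are selected. B cells there carry a shared set of transcripts that many lymphomas keep, and pathology uses several of them to tell lymphomas of germinal centre type from others. The set spans a surface peptidase and a secreted protease inhibitor (MME and SERPINA9), adaptors of antigen receptor signalling (STAP1 and GCSAM), phosphoinositide signalling proteins (ITPKB and SWAP70) and nuclear proteins (MYBL1, MEF2B, BCL7A and ELL3).

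Promoter windows of 300 bases, 250 before and 50 from an annotated start on, came from RefSeq (GRCh38.p14) and were matched for 9 of the 10 genes, with MYBL1 named only. The windows of STAP1, GCSAM and MEF2B are shown, for the member that passed the test, a member above DMSO in each treated library, and the member with the highest level per length in DMSO. They lie at chr4:67558477-67558776 on the plus strand, chr3:112133199-112133498 on the minus strand and chr19:19170214-19170513 on the minus strand. Capitals mark GAGGAA, the core of the PU.1 motif, in STAP1, where it is on the opposite strand and so reads TTCCTC. They mark TTCNNNGAA, a pattern that BCL6 and STAT motifs share, in GCSAM, and ATGCAAAT, the octamer of OCT factors, in MEF2B.
STAP1: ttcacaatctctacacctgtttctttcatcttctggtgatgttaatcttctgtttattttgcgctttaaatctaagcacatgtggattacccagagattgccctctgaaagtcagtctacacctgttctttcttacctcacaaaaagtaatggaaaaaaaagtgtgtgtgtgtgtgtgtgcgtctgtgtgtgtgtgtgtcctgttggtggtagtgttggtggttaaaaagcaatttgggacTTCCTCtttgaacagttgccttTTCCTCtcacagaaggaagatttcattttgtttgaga
GCSAM: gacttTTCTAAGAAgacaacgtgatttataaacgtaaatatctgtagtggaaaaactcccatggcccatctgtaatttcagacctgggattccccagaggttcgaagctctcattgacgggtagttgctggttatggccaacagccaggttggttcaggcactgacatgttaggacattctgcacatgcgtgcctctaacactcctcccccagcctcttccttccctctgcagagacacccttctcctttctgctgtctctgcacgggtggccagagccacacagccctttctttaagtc
MEF2B: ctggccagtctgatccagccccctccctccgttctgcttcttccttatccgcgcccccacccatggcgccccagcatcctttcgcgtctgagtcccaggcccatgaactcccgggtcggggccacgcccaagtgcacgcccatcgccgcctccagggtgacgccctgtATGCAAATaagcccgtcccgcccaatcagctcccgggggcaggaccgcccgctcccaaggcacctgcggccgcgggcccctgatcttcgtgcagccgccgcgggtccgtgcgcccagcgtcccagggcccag

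Each motif was searched on both strands of 35116 windows, where a gene with several starts has several. GAGGAA was in 27.9% of windows and in those of 5 members, BCL7A, ITPKB, SERPINA9, STAP1 and SWAP70. STAP1 had 2 matches, whose first bases stand at -9 and 13 with the start counted as 0. TTCNNNGAA was in 7.66% of windows and, of the members, in GCSAM, at -245. The octamer was in 1.77% of windows and in MEF2B (at -82) and SERPINA9. The NF-kB pattern, GGG and TTCC with 3 bases between, was in 6.52% of windows and in MME and SWAP70, where it overlapped GAGGAA. The AP-1 pattern, TGA and TCA with 1 base between, was in 7.71% of windows and in 0 of the 9 members, and the MEF2 pattern, CTA and TAG with 4 bases between, in 2.73% and in 0 of them.

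Libraries held 18162161 to 18915394 expected counts, estimates in which ambiguous reads are shared among transcripts. The 6 B-cell markers summed to 3135 to 3269 CPM with bryostatin and 2049 to 2153 CPM with DMSO (CPM are counts scaled to 1000000 per library). Of T and NK markers, 6 of 10 were in the table, all at a mean under 1 CPM, with a sum of 0.0572 to 0.385 CPM with bryostatin and 0.108 to 0.415 CPM with DMSO. Of myeloid markers, 6 of 8 were there, 4 under 1 CPM, with a sum of 12.0 to 23.7 CPM with bryostatin and 18.1 to 29.2 CPM with DMSO. The 8 stromal and epithelial markers, 6 of them under 1 CPM, summed to 3.83 to 6.27 CPM with bryostatin and 5.60 to 7.21 CPM with DMSO. Bryostatin 1 stood apart from the other treated libraries along transcript length. Among 4 classes of genes by length, its median log2 difference from the DMSO mean was 0.22 in the shortest and -0.23 in the longest, beside -0.076 and 0.05 in bryostatin 2 and -0.048 and 0.037 in bryostatin 3. The markers are therefore given with and without bryostatin 1, as are the relatives and lists whose calls are reported and differ without it.

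STAP1 rose with bryostatin, 8 other markers did not pass the test, and SERPINA9 was too low to test. An edgeR quasi-likelihood fit was used, with Benjamini-Hochberg adjusted p under 0.05 over 11613 genes. In that fit 3.72% of all genes were called higher and 0.835% lower. The median log2 fold change, bryostatin over DMSO, was 0.38 for the 9 markers and -0.00139 for all tested genes. Every bryostatin library was above every DMSO library for STAP1, GCSAM, MYBL1 and MME, and the groups overlapped for the other 5. Of all tested genes 15.3% were separated upward and 12.5% downward. The markers were chosen with earlier results of these data known, so their counts are not independent of them. Without bryostatin 1, STAP1, ITPKB, GCSAM, MYBL1, SWAP70 and MME passed as higher and 0 as lower, against 13.8% and 13.2% of 11790 genes. In a bulk sample fewer cells of a type and less RNA per cell cannot be told apart.

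**Figure D1:**
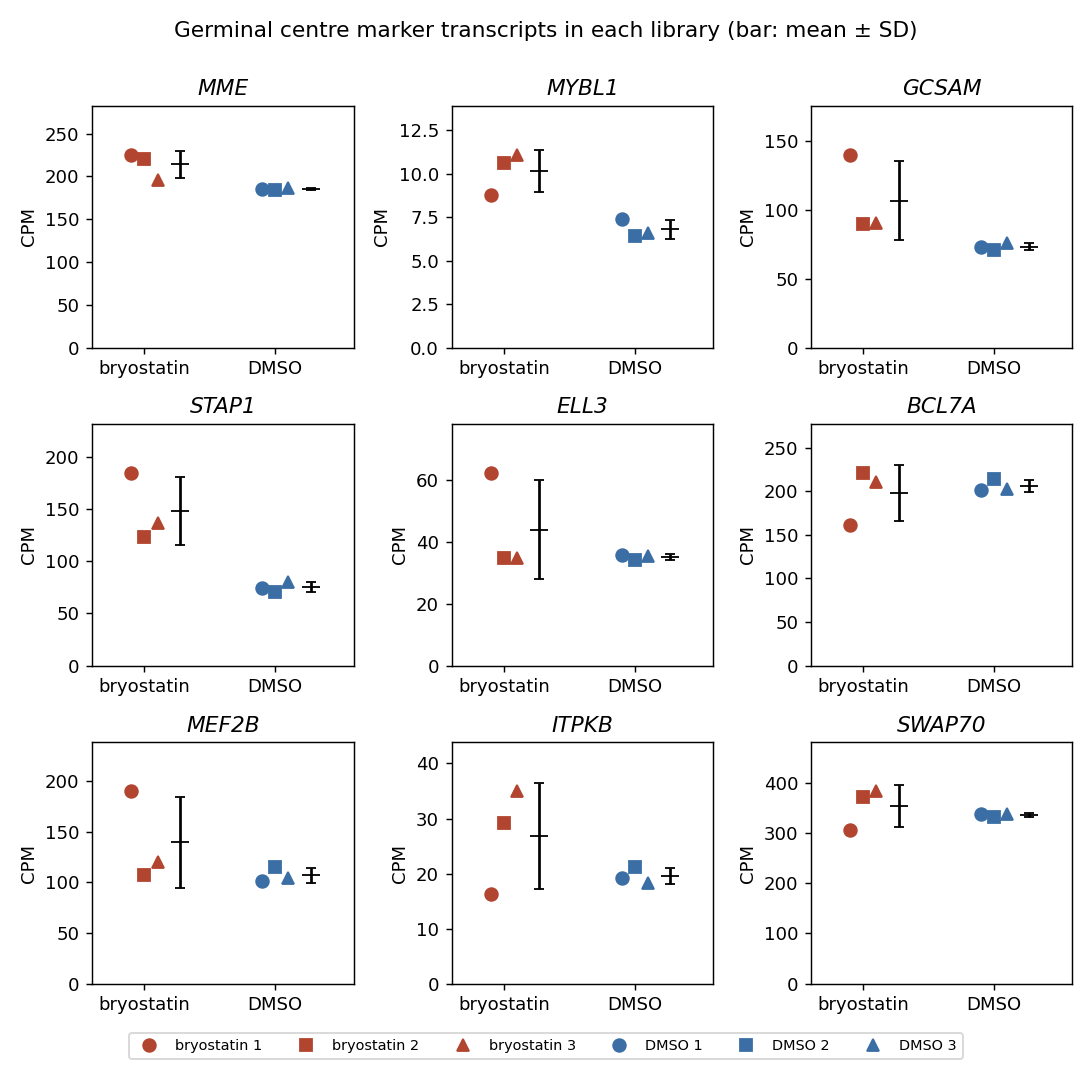
CPM of the 9 tested marker genes in each library (vertical axis, from 0), bryostatin at the left and DMSO at the right of each panel; symbols give the library number and black bars the mean ± SD of 3 libraries. All bryostatin libraries lie above all DMSO libraries for STAP1, GCSAM, MYBL1 and MME. Bryostatin 1 lies apart from bryostatin 2 and 3 for most genes, furthest in ratio for ELL3, MEF2B, GCSAM and ITPKB.

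STAP1 and GCSAM, the adaptors, were higher in every bryostatin library than in any DMSO library. STAP1 (chromosome 4, 67558727 to 67607337, GRCh38.p14), which joins a lipid-binding PH domain to an SH2 domain and acts downstream of the B-cell receptor, had 185, 124 and 136 CPM in bryostatin 1, 2 and 3, against 74.7, 71.0 and 80.2 CPM in DMSO 1, 2 and 3. Bryostatin 1 was the highest, and the lowest treated library was still well above DMSO. STAP1 rose 1.97-fold, a log2 ratio (log2 fold change) of 0.98 ± 0.15 (SE; edgeR adjusted p = 0.00851), and of 0.79 ± 0.058 without bryostatin 1 (edgeR adjusted p = 2.23e-09). Its call was lost without DMSO 1, 2 or 3 (edgeR adjusted p = 0.0635, 0.0715 and 0.0565, log2 fold change 0.97, 0.94 and 1.03). Its relative STAP2 was low, at 0.842 ± 0.336 CPM with bryostatin and 1.32 ± 0.635 CPM with DMSO (edgeR adjusted p = 0.5004).

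GCSAM (chromosome 3, 112120839 to 112133248), a membrane-anchored adaptor that restrains the motility of germinal centre lymphocytes, had 139.9, 89.6 and 90.1 CPM in bryostatin 1, 2 and 3, against 72.7, 70.9 and 76.1 CPM in DMSO 1, 2 and 3. Bryostatin 2 and 3 lay close together above DMSO, and bryostatin 1 was 1.56-fold their mean. GCSAM had an estimated log2 ratio of 0.54 ± 0.17 (edgeR adjusted p = 0.125), and of 0.29 ± 0.053 without bryostatin 1 (adjusted p = 2.86e-04). In RefSeq its extent overlaps that of C3orf52, and the use of strand is not stated, so reads of the 2 genes may not be fully apart. C3orf52, looked up for this overlap, had 14.6, 20.2 and 19.7 CPM in bryostatin 1, 2 and 3, against 12.1, 8.61 and 9.88 CPM in DMSO 1, 2 and 3 (adjusted p = 0.0321). The relative GCSAML had 1 count in DMSO 1 and 0 in the other 5 libraries.

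MME (chromosome 3, 155024202 to 155183729) encodes CD10, a zinc peptidase of the cell surface on germinal centre and precursor B cells. It had 226, 221 and 196 CPM in bryostatin 1, 2 and 3, against 185, 184 and 186 CPM in DMSO 1, 2 and 3. The groups did not overlap, with bryostatin 3 nearest to DMSO. MME had an estimated log2 ratio of 0.21 ± 0.071 (edgeR adjusted p = 0.158), and of 0.17 ± 0.048 without bryostatin 1 (adjusted p = 0.0125). On the deposited TPM, a scale per transcript length, bryostatin 1 had 54.3 TPM, within the DMSO values of 52.3 to 56.3 TPM. Of its peptidase relatives, MMEL1 had 1 count in bryostatin 1 and 0 elsewhere, and ECE1 had 45.4 ± 15.3 CPM with bryostatin and 64.7 ± 3.61 CPM with DMSO (SD, n = 3 each; log2 ratio -0.51, adjusted p = 0.277). Without bryostatin 1 the log2 ratio of ECE1 was -0.26 ± 0.063, which passed as lower (adjusted p = 0.00388).

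SERPINA9 (chromosome 14, 94462721 to 94476197), a protease inhibitor used as a germinal centre marker, had 1 expected count in bryostatin 1 and 0 in the other 5 libraries. A limit of 3 counts is worth 0.156 to 0.171 CPM in these libraries. Both groups lay under it, so no fold is given.

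ITPKB and SWAP70, the phosphoinositide proteins, were above DMSO in bryostatin 2 and 3 and below it in bryostatin 1. ITPKB (chromosome 1, 226631690 to 226739282) phosphorylates inositol trisphosphate, the messenger that releases calcium. It had 16.2, 29.3 and 35.1 CPM in bryostatin 1, 2 and 3, against 19.3, 21.1 and 18.3 CPM in DMSO 1, 2 and 3. Bryostatin 1 was below every DMSO library and at 0.505 of the mean of bryostatin 2 and 3. ITPKB had an estimated log2 ratio of 0.46 ± 0.24 (edgeR adjusted p = 0.369), and of 0.71 ± 0.09 without bryostatin 1 (adjusted p = 4.35e-06). The relative ITPKC had 10.02 ± 0.427 CPM with bryostatin and 10.4 ± 1.41 CPM with DMSO (adjusted p = 0.856), and ITPKA, under the filter, had 1, 5 and 2 counts in bryostatin 1, 2 and 3, against 2, 7 and 2 counts in DMSO 1, 2 and 3. Of 8 tested inositol trisphosphate kinases, phosphatases and receptors, ITPKB included, 0 passed by edgeR, 3 had an unadjusted p under 0.05 and 2 passed by DESeq2, with a median log2 fold change of -0.016. Of all genes 18.7% had such a p and 5.48% passed by DESeq2. Without bryostatin 1, 2 passed as higher and 1 as lower by edgeR, against 13.8% and 13.2% of all genes. The higher genes were ITPKB and the calcium channel receptor ITPR1 (1.03 on the log2 scale, edgeR adjusted p = 1.04e-07). The lower gene was the related receptor ITPR2 (-0.37, adjusted p = 5.92e-06). Both receptors were named after their values were seen.

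SWAP70 (chromosome 11, 9664077 to 9752993), which binds phosphoinositides, acts on RAC and takes part in B-cell migration, had 306, 371 and 384 CPM in bryostatin 1, 2 and 3, against 338, 331 and 338 CPM in DMSO 1, 2 and 3. The treated libraries lay on both sides of DMSO. SWAP70 had an estimated log2 ratio of 0.076 ± 0.089 (edgeR adjusted p = 0.697), of 0.17 ± 0.039 without bryostatin 1 (adjusted p = 0.00266) and of -0.025 on log2(TPM + 1). Its relative DEF6 had 13.4, 9.43 and 9.73 CPM in bryostatin 1, 2 and 3, against 5.81, 7.80 and 6.82 CPM in DMSO 1, 2 and 3 (adjusted p = 0.0861), and passed as higher without bryostatin 1 (log2 ratio 0.49 ± 0.14, adjusted p = 0.0122).

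**Figure D2:**
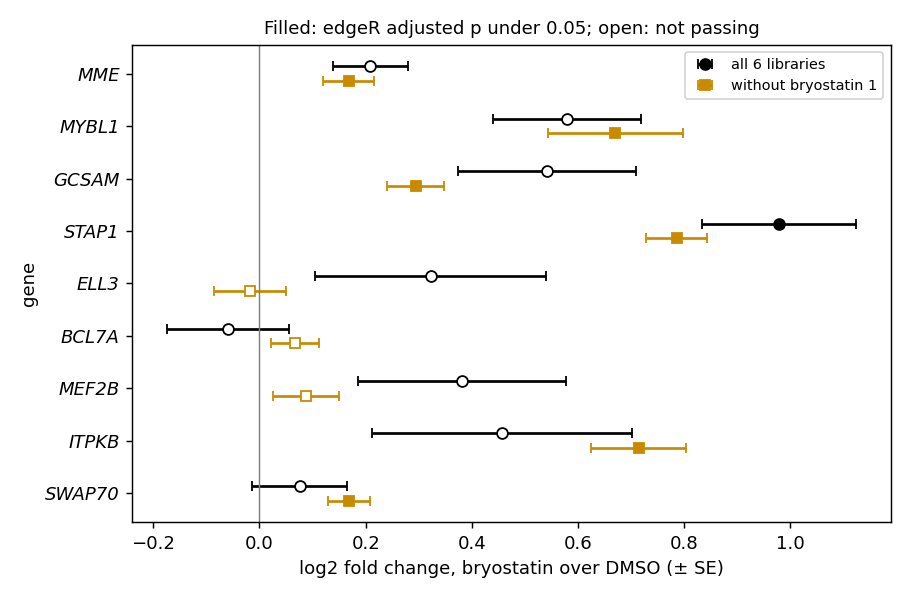
Log2 fold change of each tested marker gene, bryostatin over DMSO, with its SE (horizontal axis), from all 6 libraries (circles) and without bryostatin 1 (squares); filled symbols passed an adjusted p of 0.05. STAP1 is filled in both, 5 other genes are filled without bryostatin 1, and ELL3, BCL7A and MEF2B are open in both.

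Among the nuclear proteins MYBL1 was higher in every treated library, and the groups overlapped for MEF2B, BCL7A and ELL3. MYBL1 (chromosome 8, 66562175 to 66613218) encodes A-MYB, a transcription factor of dividing germinal centre B cells. It had 8.80, 10.6 and 11.1 CPM in bryostatin 1, 2 and 3, against 7.42, 6.40 and 6.60 CPM in DMSO 1, 2 and 3. Bryostatin 1 was the treated library nearest to DMSO. MYBL1 had an estimated log2 ratio of 0.58 ± 0.14 (edgeR adjusted p = 0.0578), and of 0.67 ± 0.13 without bryostatin 1 (adjusted p = 4.40e-04). On TPM bryostatin 1, at 2.55, fell within the DMSO range of 2.35 to 2.85. Of its relatives, MYB, a factor of immature blood cells, had 75.6 ± 1.04 CPM with bryostatin and 64.0 ± 3.93 CPM with DMSO (adjusted p = 0.132; 0.00491, as higher, without bryostatin 1). The cell-cycle factor MYBL2 had 1311 ± 59.1 CPM with bryostatin and 1391 ± 7.88 CPM with DMSO (adjusted p = 0.522; 0.0156, as lower, without bryostatin 1).

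MEF2B (chromosome 19, 19145567 to 19170263), a MADS-box transcription factor that activates BCL6, had 190.4, 107 and 120.4 CPM in bryostatin 1, 2 and 3, against 101, 115 and 104 CPM in DMSO 1, 2 and 3. Bryostatin 1 was 1.67-fold the mean of the other treated libraries, of which bryostatin 2 lay within the DMSO range and bryostatin 3 just above it. MEF2B had an estimated log2 ratio of 0.38 ± 0.20 (edgeR adjusted p = 0.347), and of 0.088 ± 0.062 without bryostatin 1 (adjusted p = 0.333). Its counts were not whole numbers and it overlaps the read-through gene BORCS8-MEF2B, so its values are uncertain. BORCS8-MEF2B, looked up for this overlap, had 9.14, 5.17 and 7.59 CPM in bryostatin 1, 2 and 3, against 4.31, 5.33 and 6.45 CPM in DMSO 1, 2 and 3. Of its family MEF2C passed in all 6 libraries, a factor of B-cell proliferation after antigen receptor stimulation. MEF2C had 57.3, 59.3 and 67.6 CPM in bryostatin 1, 2 and 3, against 38.8, 38.7 and 38.8 CPM in DMSO 1, 2 and 3, a rise of 0.66 ± 0.089 on the log2 scale (adjusted p = 0.00533). MEF2A had a log2 ratio of 0.073 and MEF2D one of -0.0014 (adjusted p = 0.729 and 0.995). Without bryostatin 1 MEF2A also passed as higher, at 0.17 ± 0.046 (adjusted p = 0.00926), and MEF2D did not, at 0.067 (adjusted p = 0.337).

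BCL7A (chromosome 12, 122021884 to 122062044), a subunit of the BAF chromatin remodelling complex, had 161, 221 and 211 CPM in bryostatin 1, 2 and 3, against 201, 214 and 203 CPM in DMSO 1, 2 and 3. Bryostatin 1 was below every DMSO library and the other treated libraries were within or just above the DMSO range. BCL7A had an estimated log2 ratio of -0.059 ± 0.12 (edgeR adjusted p = 0.826), and of 0.067 ± 0.045 without bryostatin 1 (adjusted p = 0.296). BCL7B had 96.7 ± 6.19 CPM with bryostatin and 97.5 ± 1.09 CPM with DMSO (adjusted p = 0.957), and BCL7C had 22.7 ± 4.03 CPM with bryostatin and 21.5 ± 2.04 CPM with DMSO (adjusted p = 0.811). Of 17 BAF complex genes, BCL7A included, 0 passed by edgeR, 1 had an unadjusted p under 0.05 and 1 passed by DESeq2 (against 18.7% and 5.48% of all genes), with a median log2 fold change of 0.0085. Without bryostatin 1, 4 passed as higher and 0 as lower by edgeR, against 13.8% and 13.2% of all genes. They were the ATPase SMARCA2 (0.54 on the log2 scale), ARID1A (0.14), SS18 (0.30) and BCL11A (0.20), all named after their values were seen.

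ELL3 (chromosome 15, 43772620 to 43776966), a transcription elongation factor, had 62.2, 34.7 and 34.7 CPM in bryostatin 1, 2 and 3, against 35.7, 34.1 and 35.3 CPM in DMSO 1, 2 and 3. Bryostatin 1 was high and the other treated libraries were within the DMSO range. ELL3 had an estimated log2 ratio of 0.32 ± 0.22 (edgeR adjusted p = 0.477), and of -0.017 ± 0.068 without bryostatin 1 (adjusted p = 0.883). Its extent overlaps that of PDIA3, an abundant chaperone of the endoplasmic reticulum looked up for this overlap, which had 499 ± 24.7 CPM with bryostatin and 381 ± 6.02 CPM with DMSO (adjusted p = 0.0114). Of its relatives, ELL had 31.6, 44.0 and 45.0 CPM in bryostatin 1, 2 and 3, against 52.9, 56.0 and 51.8 CPM in DMSO 1, 2 and 3 (log2 ratio -0.41, adjusted p = 0.145), and passed as lower without bryostatin 1 (-0.27 ± 0.063, adjusted p = 0.00287). ELL2, which serves antibody secretion in plasma cells, had 7.23 ± 0.836 CPM with bryostatin and 8.08 ± 1.92 CPM with DMSO (adjusted p = 0.706). Of 12 ELL and elongation complex genes, 0 passed by edgeR, 3 had an unadjusted p under 0.05 and 1 passed by DESeq2 (against 18.7% and 5.48% of all genes), with a median log2 fold change of -0.18. Without bryostatin 1, 0 passed as higher and 3 as lower by edgeR, against 13.8% and 13.2% of all genes. The 3 were ELL and the elongation proteins AFF1 (-0.42 on the log2 scale) and MLLT1 (-0.26), the last 2 named after their values were seen.

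Per length, the markers differed widely in level. The order by mean TPM in DMSO was MEF2B at 144 ± 7.30, SWAP70 at 112 ± 3.41, STAP1 at 97.5 ± 6.28, BCL7A at 90.7 ± 1.76, MME at 54.4 ± 1.98, ELL3 at 36.1 ± 1.56, GCSAM at 35.8 ± 1.97, ITPKB at 5.08 ± 0.353 and MYBL1 at 2.55 ± 0.263 TPM (SD, n = 3). Values of STAP1 and BCL7A overlapped between libraries, as did those of ELL3 and GCSAM, and the other neighbours did not overlap. With bryostatin the mean was highest for STAP1, at 182 ± 20.0 TPM, but its range of 165 to 204 TPM overlapped that of MEF2B, 145 to 213 TPM. ITPKB, at 6.65 ± 2.69, and MYBL1, at 3.60 ± 0.946 TPM, were again the lowest of the genes tested.

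**Figure D3:**
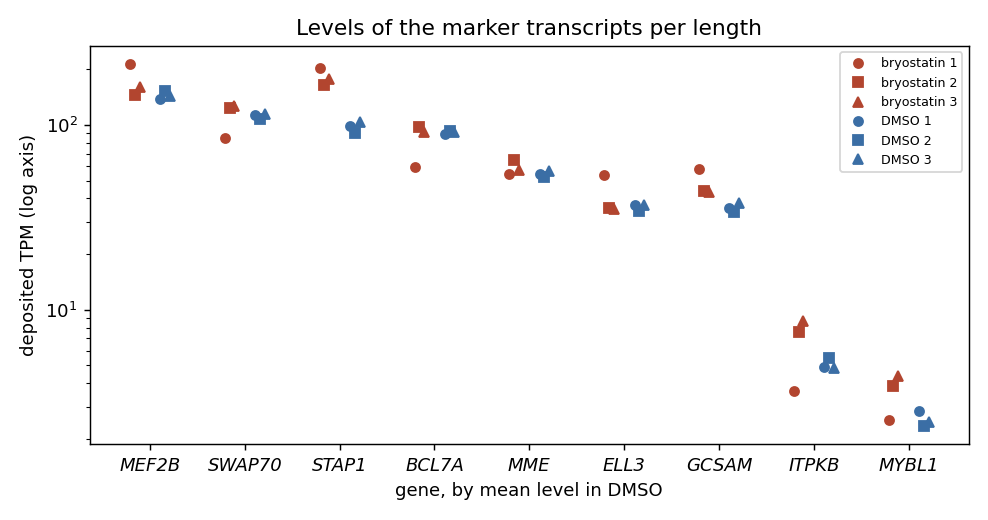
Deposited TPM of each marker gene (log vertical axis), in order of the mean level in DMSO, with the bryostatin libraries at the left of each pair and the DMSO libraries at the right. STAP1 has a mean of 182 TPM with bryostatin and 97.5 TPM with DMSO; SERPINA9, at 0 TPM in 5 libraries, is not drawn.

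Bryostatin 1 deviated in both directions among the markers. Relative to the mean of bryostatin 2 and 3, it had 1.80-fold ELL3, 1.67-fold MEF2B, 1.56-fold GCSAM, 1.42-fold STAP1 and 1.08-fold MME, and 0.810 of MYBL1, 0.810 of SWAP70, 0.744 of BCL7A and 0.505 of ITPKB. ELL3, MEF2B and STAP1 were in the shortest length class and MME, ITPKB and SWAP70 in the longest. GCSAM, MYBL1 and BCL7A were in the class below the longest, and there bryostatin 1 was above bryostatin 2 and 3 for GCSAM and below them for BCL7A and MYBL1. The part of transcript length in these deviations was not tested. With a length trend removed from each library, a setting chosen after seeing the data, STAP1 (log2 fold change 0.92, edgeR adjusted p = 4.85e-04) and MYBL1 (0.58, adjusted p = 0.0191) passed as higher and 0 of the 9 as lower, against 6.75% and 3.87% of all genes.

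**Figure D4:**
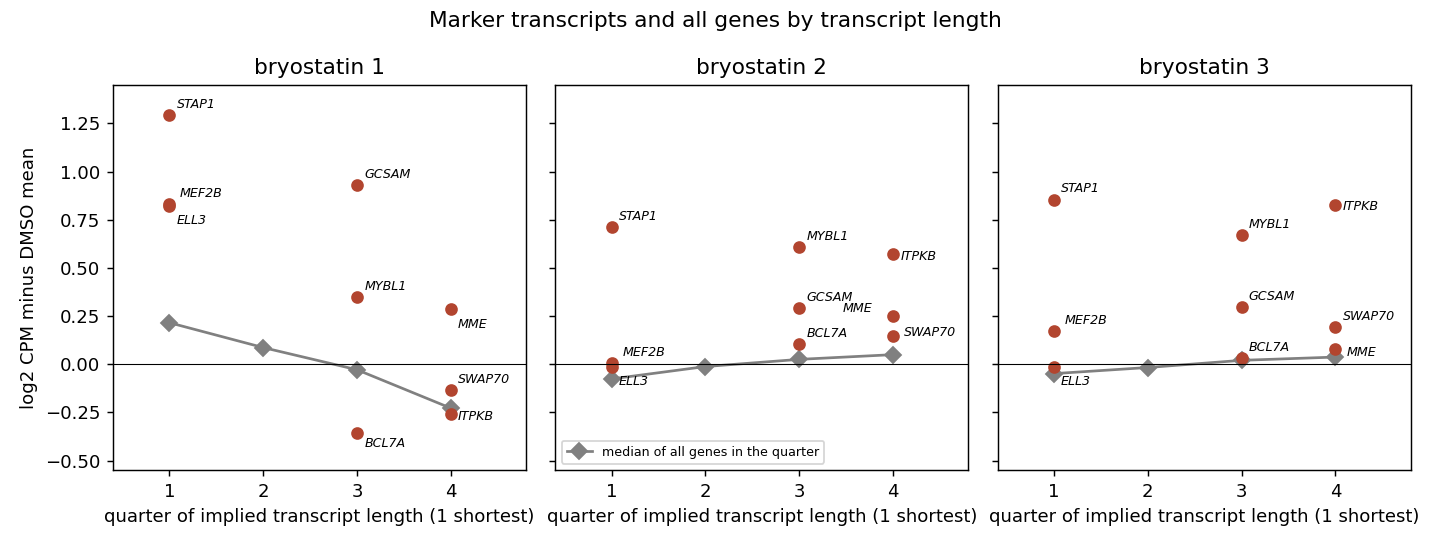
Log2 CPM minus the DMSO mean in each bryostatin library (vertical axis) for the 9 tested marker genes (red points) and the median of all genes (grey diamonds), by class of implied transcript length. The grey median falls to -0.23 in the longest class in bryostatin 1 and reaches 0.05 in bryostatin 2 and 0.04 in bryostatin 3.

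Several other transcripts of the germinal centre state rose. A wider list was chosen with earlier results of these data known, so its counts are not independent of them. Of its 22 tested genes, 9 rose, 0 fell and 13 did not pass, at a median log2 ratio of 0.25. Of all tested genes 3.72% rose and 0.835% fell. Beside the wider list, 4 of the 6 B-cell markers rose by edgeR adjusted p. Without bryostatin 1 all 6 rose, against 13.8% of all genes. The part of the B-cell markers in this was not tested. LMO2, a transcriptional co-factor, had 27.9, 30.4 and 34.6 CPM in bryostatin 1, 2 and 3, against 7.47, 7.75 and 9.46 CPM in DMSO 1, 2 and 3, or a log2 ratio of 1.91 ± 0.13 (edgeR adjusted p = 2.34e-04). S1PR2, a receptor that confines B cells to the germinal centre, had 14.003, 13.9 and 14.7 CPM in bryostatin 1, 2 and 3, against 7.73, 7.80 and 7.56 CPM in DMSO 1, 2 and 3 (adjusted p = 0.00304). For both genes bryostatin 1 lay near the other treated libraries. Among the other risers were the DNA glycosylase NEIL1 (1.68), the ubiquitin ligase adaptor KLHL6 (0.50) and the repressor BCL6 (0.43), on the log2 scale, and FAS, RGS13 and IRAG2, which were named after their values were seen. Without bryostatin 1, 13 rose and 2 fell, against 13.8% and 13.2% of all genes. The 2 fallers were CD38 and EZH2, also named after their values were seen. With 1 DMSO library left out, 5 or 6 rose. Of all genes, 128 of 11748, 147 of 11786 and 133 of 11771 rose without DMSO 1, 2 and 3.

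Classifiers of diffuse large B-cell lymphoma by cell of origin set transcripts of a germinal centre type (GCB) against those of an activated type (ABC), and MME, MYBL1, SERPINA9 and ITPKB are on the GCB side. The GCB and ABC lists were chosen with earlier results of these data known, so their counts are not independent of them. Of 7 GCB genes 5 were tested, of which S1PR2 rose and 4 did not pass, with a median log2 fold change of 0.53. Without bryostatin 1, 5 of 6 tested rose, against 13.8% of all genes. Of 8 ABC genes, 0 rose, 3 fell and 5 did not pass, with a median of -0.17. In the fit of all 6 libraries 3.72% of all genes rose and 0.835% fell. TNFRSF13B, a receptor of B-cell survival factors, had 4.74, 6.04 and 6.43 CPM in bryostatin 1, 2 and 3, against 11.5, 13.1 and 11.8 CPM in DMSO 1, 2 and 3 (log2 fold change -1.08, edgeR adjusted p = 0.00554). IRF4, which acts in B-cell activation and antibody-secreting cells, had a log2 ratio of -0.68 (adjusted p = 0.00798). CREB3L2, a membrane-bound transcription factor, had 15.8, 20.5 and 18.9 CPM in bryostatin 1, 2 and 3, against 28.4, 27.2 and 29.5 CPM in DMSO 1, 2 and 3 (log2 fold change -0.63, adjusted p = 0.0201). With 1 DMSO library left out 1 ABC gene passed as lower, against 10 to 13 of all genes. Without bryostatin 3, 2 did, against 39 of 11737 genes. Without bryostatin 1, 4 did, against 13.2% of all genes.

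Of 16 tested plasma-cell genes, 0 rose, 5 fell and 11 did not pass by edgeR, with a median log2 fold change of -0.20. Of all tested genes 3.72% rose and 0.835% fell. Among the fallers were CAV1, a caveolae scaffold, PRDM1, which encodes Blimp-1 and directs plasma-cell formation, and TNFRSF17, the receptor BCMA. The others were TNFRSF13B and IRF4, which are also ABC genes. The plasma-cell list, CAV1 included, was chosen with earlier results of these data known, so the count of fallers is not independent of them. TNFRSF17 had 9.37, 9.70 and 8.08 CPM in bryostatin 1, 2 and 3, against 13.3, 15.2 and 12.5 CPM in DMSO 1, 2 and 3 (log2 fold change -0.60, edgeR adjusted p = 0.0377). Without DMSO 1, 2 or 3, 2 plasma-cell genes fell each time, against 10 of 11748, 13 of 11786 and 12 of 11771 genes. Without bryostatin 1, 10 of 17 tested fell, against 13.2% of all genes. The genes named as rising or falling in the wider germinal centre, GCB, ABC and plasma-cell lists in all 6 libraries also passed in the same direction without bryostatin 1.

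**Figure D5:**
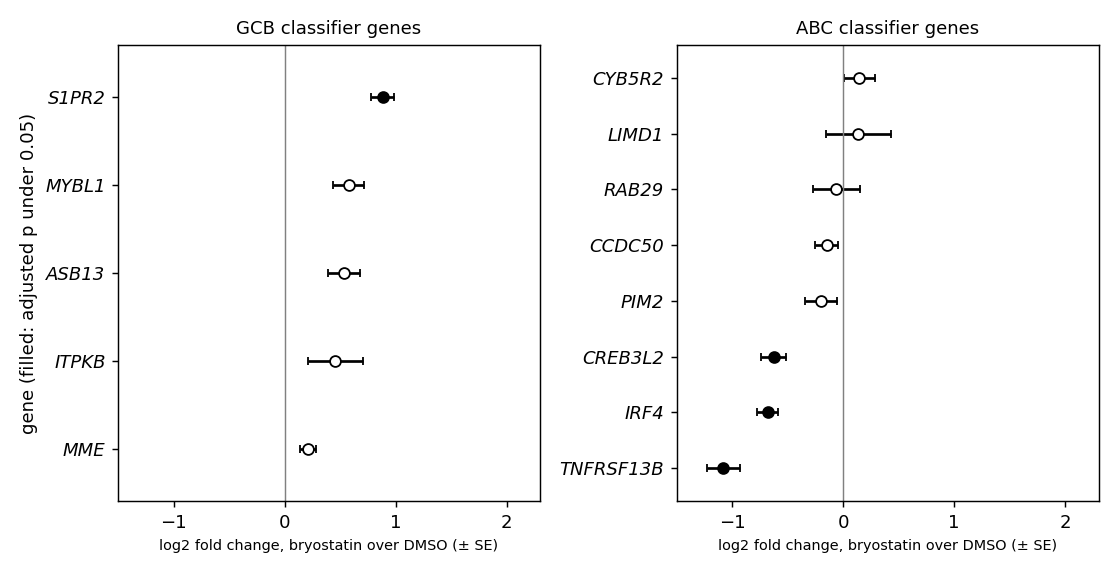
Log2 fold change with SE, bryostatin over DMSO, of the tested genes of the GCB list (left) and the ABC list (right); filled symbols passed an adjusted p of 0.05. The filled gene of the GCB list lies above 0 (1 of 5), and the filled genes of the ABC list lie below 0 (3 of 8).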

How the data were processed

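RNA was selected for poly(A) tails and read as paired ends, per the labels' protocols. HISAT2 2.2.1, RSEM 1.2.28, DESeq2 1.40.2 and GRCh38 are named, without role or order, in the submitters' processing notes. Annotation and strand use are not stated there. The authors deposited, per library, TPM, FPKM and expected counts. Between 6.31 and 7.22% of the expected counts deposited for a library were not whole, and all were rounded. FPKM, as deposited, gave the implied transcript length together with the counts, and the TPM deposited by the authors gave levels between genes.

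Differences were tested by edgeR 4.0.16 under R 4.3.3: TMM factors, filterByExpr, robust fitting, 2-sided quasi-likelihood F tests, and Benjamini-Hochberg adjustment over all genes that passed the filter, at a threshold of 0.05. The step was tested on simulated counts. The SE is the log2 fold change divided by the root of F. CPM used TMM-scaled library sizes. Alternatives used limma 3.58.1, DESeq2 1.42.0, other scalings and filters, and each library left out. Libraries of a group were no duplicates (chi-square per gene 2.65 to 38.9). Named genes were all members, their relatives, and in each list up to 6 passing genes with the smallest p; others are marked, and some results are not reported here. Members and lists were chosen with earlier results of these data known.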

Additional observations from a re-analysis of the deposited data

How the results depend on the processing

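By edgeR on all 6 libraries 1 marker changed, while DESeq2 called 3, limma-voom with quality weights 6 and the length offset 2. Leaving out 1 library gave 0 to 6, with 6 without bryostatin 1 and 0 without DMSO 1, 2 or 3. In the fits without a DMSO library, 3 markers each time had an unadjusted edgeR p under 0.05. Of all genes, 1408 of 11748, 1509 of 11786 and 1476 of 11771 had such a p without DMSO 1, 2 and 3. Of the wider germinal centre genes 9 changed, with 15 under quality weights, 5 on log2(TPM + 1) and on log2(TPM + 0.1), and 5 to 15 with 1 library left out. The GCB count of 1 became 3 by DESeq2, 5 with quality weights, 3 with the length offset and 1 to 5 with 1 library left out. The ABC count of 3 was 1 to 4 with 1 library left out. The plasma-cell count of 5 was 10 with quality weights and 2 to 10 with 1 library left out. All genes changed numbered 529, with 865 by DESeq2, 2988 with quality weights, 1233 with the length offset, 338 with the replicate block and 138 to 3183 with 1 library left out. BCL7A turned to 0.060 with quality weights and ranged from -0.15 to 0.067 with 1 library left out, ELL3 from -0.017 to 0.47, and SWAP70 turned to -0.025 on log2(TPM + 1) and -0.026 on log2(TPM + 0.1). The cause was not tested. Deviations from the group mean in same-numbered libraries had correlations of -0.194, -0.184 and 0.0471. The 3 deviations of a group sum to 0 and bryostatin 1 stood apart, so these correlations could hardly show pairing. With the replicate block 1 marker passed, as without it. STAP1 kept its direction in 18 of 18 alternatives and its call in 15. SERPINA9 lay under 3 counts in each library, and the part of sequencing depth in this was not tested.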
